A study of Mus musculus with 6 samples.

Results

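The Eph receptors are the largest family of receptor tyrosine kinases. They are activated by ephrins, ligands that are themselves held on the surface of neighbouring cells, so that signals pass at points of cell contact and can run in both directions. EphA receptors mainly bind the lipid-anchored ephrin-A ligands, EphB receptors mainly bind the transmembrane ephrin-B ligands, and *Epha4* also binds ephrin-B ligands. In the cortex the family is known for sorting axons into topographic maps, for guiding thalamic and callosal axons, and for shaping dendritic spines and synapses.

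The 10 Eph receptor genes described here, *Epha3*, *Epha4*, *Epha5*, *Epha6*, *Epha7*, *Epha8*, *Epha10*, *Ephb1*, *Ephb2* and *Ephb3*, were picked by gene symbol from the 21667 named genes in the files. Earlier results of these data were known when they were picked. RNA-seq was done on somatosensory cortex of adult male mice on a mixed SVeV-129 and C57BL/6J background, 3 control and 3 *Mef2c* cKO. Both genotypes carried floxed alleles of *Mef2c*, which encodes a transcription factor of the MEF2 family. Controls (*Mef2c* fl/fl) were Cre-negative littermates, and *Mef2c* cKO mice (*Mef2c* fl/fl; *Emx1*-Cre) also carried Cre recombinase inserted in the *Emx1* gene, which is active in most excitatory neurons and in some glia of the forebrain from embryonic stages on, but not in interneurons or microglia. In each genotype replicate 1 was 14 weeks old and replicates 2 and 3 were 12 weeks old. The comparison of genotypes asks how the cortical transcriptome differs after loss of *Mef2c* from these cells.

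Depth ranged from 19326365 to 54128334 reads per mouse. These totals were worked out from the deposited values and are close to the sum of the reads counted on genes. The deposited values are RPKM, reads scaled by a gene length and by the reads of the library. The lengths behind them differed between the tables for the same gene, so that *Epha6*, for example, ran from 0.943 to 64.4 RPKM over the 6 mice. Whole reads were therefore recovered from the RPKM values and given as CPM, the reads of a gene per 1000000 reads of the library. CPM correlated at 0.992 to 0.995 between mice of a genotype, against 0.521 to 0.547 for the deposited RPKM. All 60 member values, 10 genes in 6 mice, gave whole reads. They ranged from 46 reads for *Epha8* in *Mef2c* cKO replicate 2, the shallowest library, to 15285 for *Epha4* in *Mef2c* cKO replicate 3. Fold changes come from limma on log2(CPM + 0.1) over 14598 genes, and a gene was called increased or decreased when its Benjamini-Hochberg adjusted p was under 0.05 and its log2 fold change was beyond 0.3 in either direction.

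The value for *Mef2c* covers the whole gene, and the part removed by Cre cannot be seen on its own in these files. Its level was 800, 772 and 800 CPM in control replicates 1, 2 and 3 and 1231, 1276 and 1468 CPM in *Mef2c* cKO replicates 1, 2 and 3. The gene-level value was thus higher in the cKO and does not check the labels. *Emx1*, the gene that holds the Cre, fell from 18.5 ± 1.92 CPM to 5.26 ± 0.397 CPM (mean ± SD, n = 3 each) without overlap between the genotypes. *Mef2d*, a second member of the MEF2 family, was also called increased, by 0.35 on the log2 scale (limma adjusted p = 0.00188). *Mef2a*, at 0.16, was not called (limma adjusted p = 0.0963). The authors reported no significant change of *Mef2a* or *Mef2d*, citing a figure panel that holds RNA-seq, which they tested with DESeq, and qPCR. The result for *Mef2d* here differs from theirs.

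The sequences just before the transcription starts of the 10 genes are shown because 5 of the genes moved in the same direction, and they let the starts of the genes that rose be set beside those that did not. Each is the 100 bases before the first RefSeq start in the GRCm38.p6 build, 5′ to 3′ on the gene's strand. Capitals mark the letters CCAAT or, for the other strand, ATTGG, the CCAAT box. The first 5 genes were called increased, *Epha8* was called decreased, and the last 4 were not called.
Epha3, chr16:63864176-63864275, minus strand: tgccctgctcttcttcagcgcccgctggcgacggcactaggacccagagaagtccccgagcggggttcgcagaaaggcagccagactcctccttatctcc
Epha5, chr5:84417383-84417482, minus strand: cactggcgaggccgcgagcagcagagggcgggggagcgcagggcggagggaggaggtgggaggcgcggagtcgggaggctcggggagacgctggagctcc
Epha6, chr16:60605532-60605631, minus strand: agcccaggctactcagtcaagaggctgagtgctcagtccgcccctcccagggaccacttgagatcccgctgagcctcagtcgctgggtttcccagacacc
Epha7, chr4:28813031-28813130, plus strand: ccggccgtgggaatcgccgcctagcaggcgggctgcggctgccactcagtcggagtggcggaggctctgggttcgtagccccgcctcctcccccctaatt
Ephb3, chr16:21204695-21204794, plus strand: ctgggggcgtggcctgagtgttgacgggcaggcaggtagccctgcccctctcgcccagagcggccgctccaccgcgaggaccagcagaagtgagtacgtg
Epha8, chr4:136956817-136956916, minus strand: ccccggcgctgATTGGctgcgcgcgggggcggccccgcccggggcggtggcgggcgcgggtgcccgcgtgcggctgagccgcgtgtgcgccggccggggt
Epha4, chr1:77515089-77515188, minus strand: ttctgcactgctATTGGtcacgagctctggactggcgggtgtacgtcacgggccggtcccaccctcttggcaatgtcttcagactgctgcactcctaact
Epha10, chr4:124881685-124881784, plus strand: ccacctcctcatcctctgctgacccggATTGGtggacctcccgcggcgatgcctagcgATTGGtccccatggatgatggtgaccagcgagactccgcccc
Ephb1, chr9:102354694-102354793, minus strand: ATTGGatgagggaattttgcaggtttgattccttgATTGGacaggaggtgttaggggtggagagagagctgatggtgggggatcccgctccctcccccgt
Ephb2, chr4:136836013-136836112, minus strand: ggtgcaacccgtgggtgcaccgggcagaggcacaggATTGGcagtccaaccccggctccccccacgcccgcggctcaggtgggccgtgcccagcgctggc

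In this stretch, none of the 5 increased genes and all of the other 5 held the CCAAT letters. The search for this motif was chosen after the sequences had been seen. The split depends on the window and on the start chosen. In the 300 bases from 250 before to 50 after the start, *Epha6* and *Epha7* also held it, and from the second RefSeq start of *Epha7* a match falls within the 100 bases. Among the 11100 tested genes with a RefSeq promoter, 22.4% held it in the 100 bases, and 5.27% of these were called increased against 5.54% of those without it. The split among the members is therefore a description of these 10 windows. A match to the MEF2 consensus, searched on both strands, was present in the 300-base window of none of the 10 genes, against 1.78% of the tested genes with a promoter, and says only that these letters are not in these windows. The share of G and C in the 10 windows ran from 55.7% for *Ephb1* to 84.3% for *Epha8*. Its median was 64.8%, beside a median of 60.7% over the tested genes, and *Ephb1* and *Epha6* (60.3%) were below the latter.

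Of the 10 Eph receptor genes, 5 were called increased in *Mef2c* cKO cortex, where 5.82% of all tested genes were. These were *Epha3*, *Epha5*, *Epha6*, *Epha7* and *Ephb3*. *Epha8* was the 1 gene called decreased, where 7.7% of all tested genes were, and *Epha4*, *Epha10*, *Ephb1* and *Ephb2* did not pass both cut-offs. In either direction, 6 of 10 members were called against 13.5% of tested genes. The genotypes did not overlap in 7 of the 10 genes, the 6 called ones and *Epha10*, against 33.8% of the 14163 tested genes with a value in all mice. The median log2 fold change was 0.252 over the members and 0.007 over all tested genes. Because the 10 genes were chosen with earlier results of these data known, these shares describe them and do not test the family. Of the 4 other Eph receptors, 3 were tested and 0 were called. This is a tissue RNA measurement, in which fewer cells of a type and less RNA per cell cannot be told apart.

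**Figure D1:**
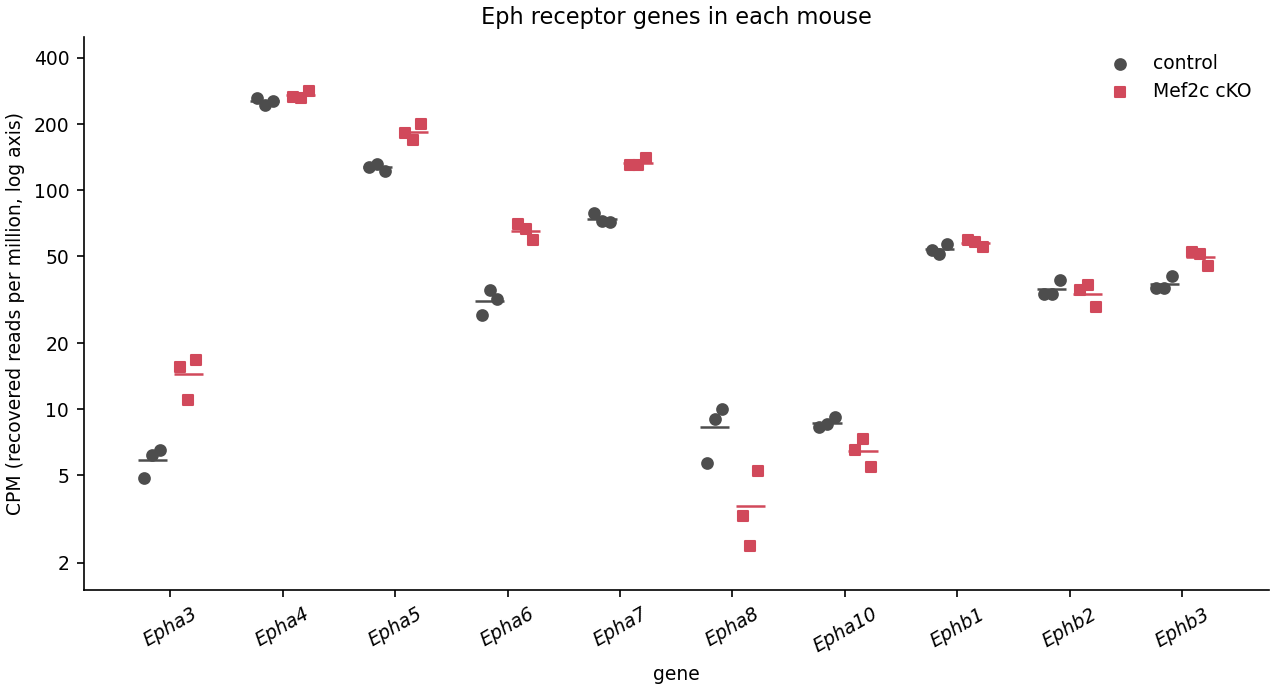
CPM of the 10 Eph receptor genes in each mouse, on a log axis. Circles are control mice, squares are Mef2c cKO mice, points run from replicate 1 to 3 within each group, and lines are group means (n = 3 each). The squares lie above all circles for Epha3, Epha5, Epha6, Epha7 and Ephb3 and below them for Epha8 and Epha10.

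*Epha3* encodes a receptor of the ephrin-A class known from retinal axon mapping, and lies at chr16:63543364-63863984 on the minus strand of mm9. Its level was 4.88, 6.20 and 6.50 CPM in control replicates 1 to 3 and 15.5, 11.02 and 16.8 CPM in *Mef2c* cKO replicates 1 to 3. Every cKO mouse was above every control, and the 2 groups were 5.86 ± 0.860 and 14.4 ± 3.02 CPM (mean ± SD, n = 3). The rise was 2.42-fold, the largest of the 10 genes, with a log2 fold change of 1.27 ± 0.17 (SE) and a limma adjusted p of 0.00102. It rested on 166 to 907 reads per mouse.

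*Epha6* spans 952 kb, the longest of the 10 genes, at chr16:59653309-60605357 on the minus strand of mm9. It was at 26.9, 34.9 and 31.7 CPM in the controls and at 70.3, 66.4 and 59.0 CPM in the cKO mice. The lowest cKO mouse was well above the highest control. The level rose 2.10-fold, with a log2 fold change of 1.07 ± 0.10 (SE, limma adjusted p = 0.000153).

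*Epha7*, whose product takes part in corticothalamic mapping and in dendrite and spine growth, lies at chr4:28740281-28894649 on the plus strand of mm9. It had 78.6, 72.0 and 71.7 CPM in the controls and 129.9, 130.1 and 140.1 CPM in the cKO mice. Both groups were tight, at 74.1 ± 3.90 and 133 ± 5.84 CPM (mean ± SD, n = 3). Its rise of 1.80-fold had the smallest adjusted p among the members, with a log2 fold change of 0.85 ± 0.062 (SE, limma adjusted p = 2.85e-05), and *Epha7* stood at rank 117 of all tested genes by adjusted p.

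*Epha5*, a receptor of the ephrin-A class with broad expression in forebrain neurons, lies at chr5:84486816-84846407 on the minus strand of mm9. It was measured at 127, 131 and 122 CPM in the controls and at 183, 169.8 and 199 CPM in the cKO mice, again without overlap. The rise was 1.45-fold, with a log2 fold change of 0.53 ± 0.069 (SE, limma adjusted p = 0.000722).

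*Ephb3* was the one EphB gene of the 3 that rose. Its product acts with other EphB receptors in the formation of callosal axons and of excitatory synapses. The gene lies at chr16:21204828-21223378 on the plus strand of mm9 and spans 18.6 kb, the shortest of the 10. Its level was 35.6, 35.7 and 40.4 CPM in the controls and 52.1, 51.1 and 45.1 CPM in the cKO mice. *Mef2c* cKO replicate 3 was nearest to the controls but still above them. The rise was 1.33-fold, with a log2 fold change of 0.41 ± 0.082 (SE, limma adjusted p = 0.00883).

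The 5 rises kept their direction and their call in all 15 alternatives on recovered reads, including each of the 6 with a mouse left out. The log2 fold change ranged over these from 1.15 to 1.46 for *Epha3*, from 0.97 to 1.15 for *Epha6*, from 0.81 to 0.89 for *Epha7*, from 0.47 to 0.59 for *Epha5* and from 0.37 to 0.47 for *Ephb3*. Within age, the 14-week-old pair differed by 1.65, 1.38, 0.72, 0.53 and 0.55 on the log2 scale for *Epha3*, *Epha6*, *Epha7*, *Epha5* and *Ephb3*. The same differences between the 2 and 2 mice at 12 weeks were 1.09, 0.91, 0.91, 0.54 and 0.34. Each of the 5 genes was higher in the cKO at both ages. In the deposited RPKM, whose lengths vary between mice, limma called 0 of the 8 members that passed the filter, and 0 had an unadjusted p under 0.05.

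*Epha8* was the 1 member called decreased. It encodes a receptor of the ephrin-A class and lies at chr4:136485334-136512731 on the minus strand of mm9. Its level was 5.70, 9.03 and 10.1 CPM in the controls and 3.27, 2.38 and 5.23 CPM in the cKO mice. Control replicate 1 and *Mef2c* cKO replicate 3 came close to each other without overlapping. The log2 fold change was -1.20 ± 0.29 (SE, limma adjusted p = 0.0211), with a 95% interval from -1.85 to -0.55. The call was lost when control replicate 2, control replicate 3, *Mef2c* cKO replicate 1 or *Mef2c* cKO replicate 2 was left out, with limma adjusted p of 0.0765, 0.0772, 0.0637 and 0.0581. The log2 fold change without them was -1.12, -1.04, -1.16 and -0.94. Within age it was -0.79 for the 14-week-old pair and -1.41 at 12 weeks.

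*Epha10*, whose product is known as a receptor without an active kinase, lies at chr4:124558143-124595044 on the plus strand of mm9. It had 8.29, 8.56 and 9.24 CPM in the controls and 6.51, 7.35 and 5.43 CPM in the cKO mice. All cKO mice were below all controls, but the log2 fold change of -0.44 ± 0.13 (SE) had a limma adjusted p of 0.0503 and just missed the cut-off. Without *Mef2c* cKO replicate 2 it passed, at -0.54 with a limma adjusted p of 0.0284.

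*Epha4*, a receptor that binds ligands of both classes and acts in axon repulsion and at spines contacted by astrocytes, lies at chr1:77363760-77511663 on the minus strand of mm9. It was at 264, 244 and 256 CPM in the controls and at 266, 263 and 282 CPM in the cKO mice, and the groups overlapped. The log2 fold change was 0.09 ± 0.057 (SE, limma adjusted p = 0.36), with a 95% interval from -0.04 to 0.22. *Ephb1*, at chr9:101824458-102257023 on the minus strand of mm9, had 53.2, 50.8 and 56.8 CPM in the controls and 59.2, 57.8 and 54.9 CPM in the cKO mice. These groups overlapped too, with a log2 fold change of 0.10 ± 0.066 (SE) and a 95% interval from -0.05 to 0.25 (limma adjusted p = 0.384). *Ephb2* encodes a receptor known for binding NMDA receptors at excitatory synapses, and lies at chr4:136203454-136391903 on the minus strand of mm9. It was at 33.5, 33.5 and 38.7 CPM in the controls and at 35.0, 36.8 and 29.3 CPM in the cKO mice, an overlap in which *Mef2c* cKO replicate 3 was the lowest of all. Its log2 fold change of -0.07 ± 0.10 (SE, limma adjusted p = 0.715) had a 95% interval from -0.30 to 0.16, and its sign turned when *Mef2c* cKO replicate 3 was left out.

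Levels of different genes were compared per kilobase of exon, using the gencode gene models of mm9, which are not the models the authors counted on. On this scale *Epha4* led in both genotypes, with 40.2 ± 1.55 CPM per kb in the controls and 42.7 ± 1.66 in the cKO mice (mean ± SD, n = 3). It made up 46.1% of the summed level of the 10 genes in the controls and 38.7% in the cKO. *Epha5* followed with 12.6 ± 0.461 CPM per kb in the controls, then *Ephb1* with 8.26 ± 0.459 and *Epha7* with 7.50 ± 0.395. *Ephb1* and *Epha7* overlapped between control mice and so cannot be ordered there. *Ephb3* and *Epha6*, at 5.92 ± 0.442 and 5.89 ± 0.761 CPM per kb, also overlapped. *Ephb2* was lower, at 2.80 ± 0.238 CPM per kb, and *Epha8*, *Epha10* and *Epha3* came last at 1.75 ± 0.484, 1.21 ± 0.0674 and 1.04 ± 0.152. *Epha8* and *Epha10* overlapped, while the lowest control value of *Epha10*, 1.151, was just above the highest of *Epha3*, 1.149.

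The order of levels was different in the cKO mice. There *Epha7* and *Epha6*, at 13.5 ± 0.591 and 12.3 ± 1.09 CPM per kb, stood above *Ephb1* at 8.83 ± 0.338, with no overlap between either of them and *Ephb1*. *Epha3*, at 2.55 ± 0.533 CPM per kb, overlapped with *Ephb2* at 2.67 ± 0.312 and stood above *Epha10* and *Epha8*. These came last at 0.892 ± 0.133 and 0.769 ± 0.309 and overlapped, so that they cannot be ordered. The summed level of the 10 genes was 87.1, 85.9 and 88.6 CPM per kb in control replicates 1 to 3 and 111, 107.6 and 113 CPM per kb in the cKO replicates 1 to 3. Every cKO sum was above every control sum, and the means had a ratio of 1.27. The 7 EphA genes summed to 70.2 ± 0.428 and 91.1 ± 3.50 CPM per kb. For the 3 EphB genes the sums were 17.0 ± 1.11 and 19.4 ± 1.23 CPM per kb (mean ± SD, n = 3).

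**Figure D2:**
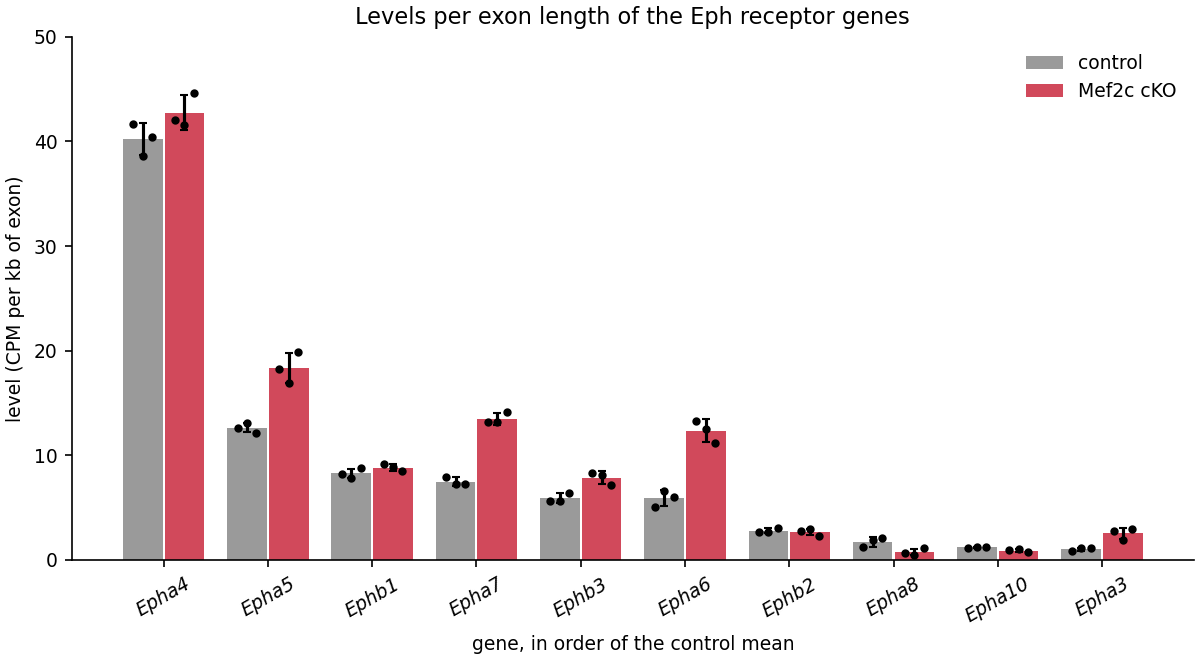
Level of each Eph receptor gene in CPM per kb of exon, in the order of the control mean. Bars are means of 3 mice, error bars are SD and dots are single mice. Epha4 has the highest bars in both genotypes, and the bars of Epha7 and Epha6 pass those of Ephb1 in the Mef2c cKO only.

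Of the other 4 Eph receptors 3 were tested, and limma called 0 of them, with 1 at an unadjusted p under 0.05. *Ephb6*, which like *Epha10* lacks kinase activity, had the highest level per exon length of all 14, with 50.6 ± 1.84 CPM per kb in the controls and 43.7 ± 2.29 in the cKO mice (mean ± SD, n = 3). In CPM it was at 193, 183 and 196 in the controls and at 157, 174 and 163 in the cKO mice, all of them lower. Its log2 fold change of -0.21 ± 0.06 (SE, limma adjusted p = 0.0421) was smaller than the size cut-off. *Ephb4* and *Epha2*, receptors known mostly from vessels and epithelia, had log2 fold changes of 0.00 and 0.26 with adjusted p of 0.99 and 0.462. *Epha1*, at 0.0517 to 0.397 CPM, was left out by the filter on low values.

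The ephrins divided as well. Of the 8 genes 7 were tested, 3 were called increased, against 5.82% of all tested genes, and 1 was called decreased. *Efna5*, an ephrin-A ligand, fell from 70.7, 63.6 and 77.4 CPM in the controls to 17.0, 14.8 and 16.4 CPM in the cKO mice, a log2 fold change of -2.13 ± 0.091 (SE, limma adjusted p = 2.14e-06). *Efnb2*, an ephrin-B ligand that also binds *Epha4*, went from 42.0, 40.3 and 39.4 CPM to 70.4, 65.0 and 71.1 CPM. The log2 difference was 0.76 ± 0.064 (SE, limma adjusted p = 6.37e-05). *Efna3* and *Efnb3* rose by 0.46 each (limma adjusted p = 0.00727 and 0.026), while *Efnb1* had a log2 fold change of 0.34 with an adjusted p of 0.061. *Efna1* and *Efna2* had -0.11 and 0.27, with overlapping groups, and *Efna4* was left out by the filter. Thus 4 of the 7 EphA genes among the members were called increased, *Epha8* was called decreased, and *Epha4* and *Epha10* were not called. In the same tissue the ligand *Efna5* fell and *Efna3*, *Efnb2* and *Efnb3* rose.

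**Figure D3:**
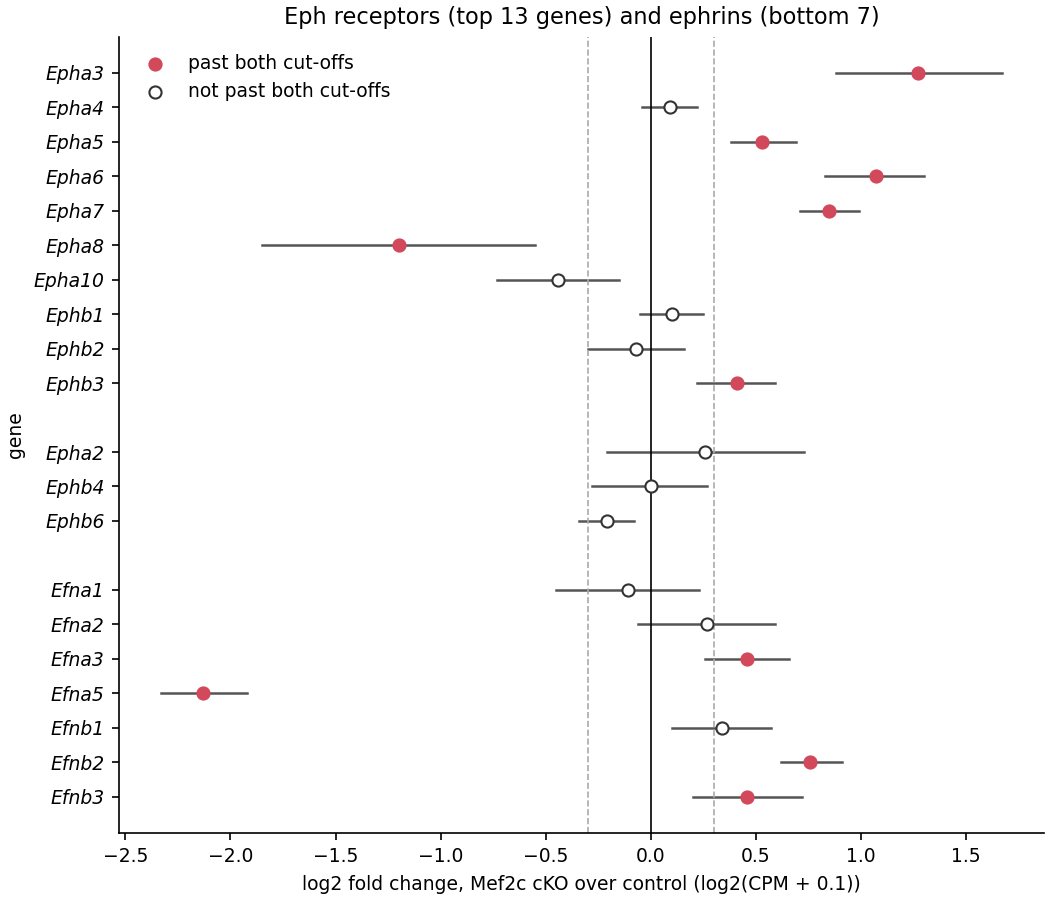
Log2 fold change of Mef2c cKO over control for the 10 Eph receptor genes, 3 further tested Eph receptors and 7 tested ephrins, with 95% intervals from limma (n = 3 mice each). Filled points passed both cut-offs, and dashed lines mark the size cut-off of 0.3 in each direction. Efna5 lies farthest to the left at -2.13 and Epha3 farthest to the right at 1.27.

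A further list held genes that carry Eph signals inside the cell or act beside the receptors at the membrane. Limma tested all 45 genes of the list and called 0 increased and 4 decreased, where 7.7% of all tested genes were called decreased. At an unadjusted p under 0.05, 3 were higher and 12 lower in the cKO, and the median log2 fold change of the list was -0.05. The share of all tested genes at this unadjusted cut-off was not worked out, so no shift of the list can be read from the 3 and 12. The 4 were *Chn2*, which encodes a Rac-inactivating chimaerin, *Tiam1* and *Kalrn*, which encode exchange factors for Rac, and *Sipa1l1*, which encodes a Rap-inactivating protein of spines. *Chn2* fell from 52.6, 46.1 and 53.9 CPM to 25.6, 25.7 and 28.0 CPM, with a log2 fold change of -0.94 ± 0.08 (SE, limma adjusted p = 7.04e-05). *Tiam1* fell by 0.60 on the log2 scale (limma adjusted p = 0.000529), and *Kalrn* and *Sipa1l1* fell by 0.32 each. *Chn1*, the relative of *Chn2* that acts after *Epha4*, had 998 ± 35.1 CPM in the controls and 1093 ± 52.6 in the cKO mice, and the log2 difference of 0.13 had a limma adjusted p of 0.211. *Ngef*, an exchange factor that binds EphA receptors, had a log2 fold change of -0.29 and an adjusted p of 0.0106, just short of the size cut-off. *Adam10*, which encodes a protease that cuts ephrins and Eph receptors, was at 0.19 with an adjusted p of 0.0759.

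The members were long genes, though not all of them. Their median span of 171 kb compares with 25.9 kb over the 13211 tested protein-coding genes with a gene model, and 6 of the 10 span over 150 kb. Of these 6, 4 were called increased and 0 decreased, while among the 1246 tested genes over 150 kb 9.39% were called increased and 18.1% decreased. The 3 members under 50 kb included the other increased gene, *Ephb3*, and the decreased *Epha8*. *Epha3*, *Epha6* and *Ephb3* lie on chromosome 16, and *Epha7*, *Epha8*, *Epha10* and *Ephb2* on chromosome 4. Of the 20 nearest tested neighbours, 1 on each side of each gene, 1 was called increased and 1 decreased. *Chrd*, 462 kb from *Ephb3*, had a log2 fold change of 0.54, and *Sgpp2*, 795 kb from *Epha4*, had -0.60. *Arl6* begins 14.1 kb from *Epha6* and had 0.05. Exons of an unlisted transcript on the other strand overlap those of *Epha6*, *Epha10* and *Ephb1* by 107, 79 and 152 bases, and whether the counting used strand is not given in the sources used here.

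**Figure D4:**
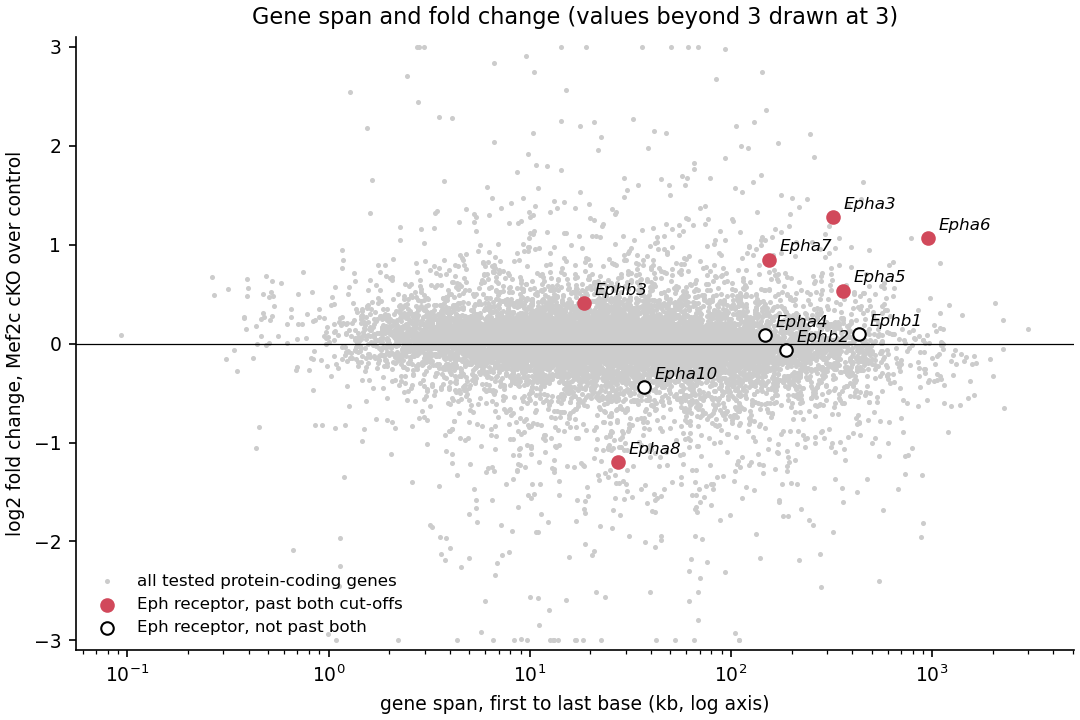
Log2 fold change of Mef2c cKO over control against the span of the gene in kb on a log axis, for the tested protein-coding genes (grey) and the 10 Eph receptor genes (large points, filled where called). Fold changes beyond 3 are drawn at 3. Of the 6 members over 150 kb, Epha3, Epha5, Epha6 and Epha7 lie between 0.53 and 1.27, and Ephb1 and Ephb2 lie at 0.10 and -0.07.

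Some markers of cell types and regions moved with genotype as well, and their part in the Eph receptor differences was not tested. Over all tested genes, 5.82% were called increased and 7.7% decreased. For the counts at an unadjusted p under 0.05, the share over all tested genes was not worked out. Markers of upper cortical layers summed to 586 to 650.4 CPM in the controls and 345 to 371 CPM in the cKO mice, and 4 of 5 were called decreased. Hippocampal markers summed to 67.4 to 78.0 CPM against 107 to 210.3 CPM, with 1 of 5 called increased and 1 decreased. The higher sum came from *Wfs1*, with means of 58.4 CPM in the controls and 138 CPM in the cKO mice, while *C1ql2* fell from 3.03 to 1.11 CPM. Thalamic markers summed to 74.4 to 119.8 CPM against 52.7 to 60.5 CPM, with 1 of 4 tested called increased and 1 decreased, and the lower sum came from *Rora*, with means of 71.7 and 31.6 CPM. Astrocyte markers summed to 3835 to 4101 CPM against 3326 to 3604 CPM, with 2 of 5 called increased and 1 decreased. The increased ones were *Gfap*, with means of 59.6 CPM in the controls and 155 CPM in the cKO mice, and *Aqp4*, with 83.8 and 139 CPM. The decreased one was *Aldh1l1*, with means of 64.0 and 48.6 CPM. Most of the sum was *Slc1a2*, which was not called, with means of 3407 and 2864 CPM. Oligodendrocyte markers ranged from 2926 to 4832 CPM and from 4760 to 6083 CPM, with 1 of 5 called increased and all 5 higher at an unadjusted p under 0.05. The sums for general neuronal markers were 6010 to 6828 CPM and 7084 to 7652 CPM, with 0 of 5 called by limma (3 higher at an unadjusted p under 0.05), and those for microglia were 186 to 207 CPM and 176 to 181 CPM, with 0 of 5 called (3 lower at an unadjusted p under 0.05). Sums for excitatory neurons, interneurons, endothelial cells, deep layers and striatum overlapped between the genotypes. Of these lists, 3 of 6 excitatory neuron markers were called increased and 1 decreased. The decreased marker was *Emx1*, the gene that holds the Cre. In each direction 1 of 6 interneuron markers was called, and 2 of 6 deep-layer markers were called decreased. Among endothelial and striatal markers, 0 were called or had an unadjusted p under 0.05. The striatal sum varied most, from 131.8 to 186 CPM in the controls and from 61.8 to 229 CPM in the cKO mice, lowest in *Mef2c* cKO replicate 2. The cortical excitatory neuron marker *Slc17a7* was at 1191 ± 48.3 CPM in the controls and 1241 ± 47.2 CPM in the cKO mice (mean ± SD, n = 3), a high level in all 6 mice. No listed marker in the files was at 0 in every mouse, and the thalamic marker *Gbx2* was lowest, at a mean of 0.0098 CPM in the controls.

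**Figure D5:**
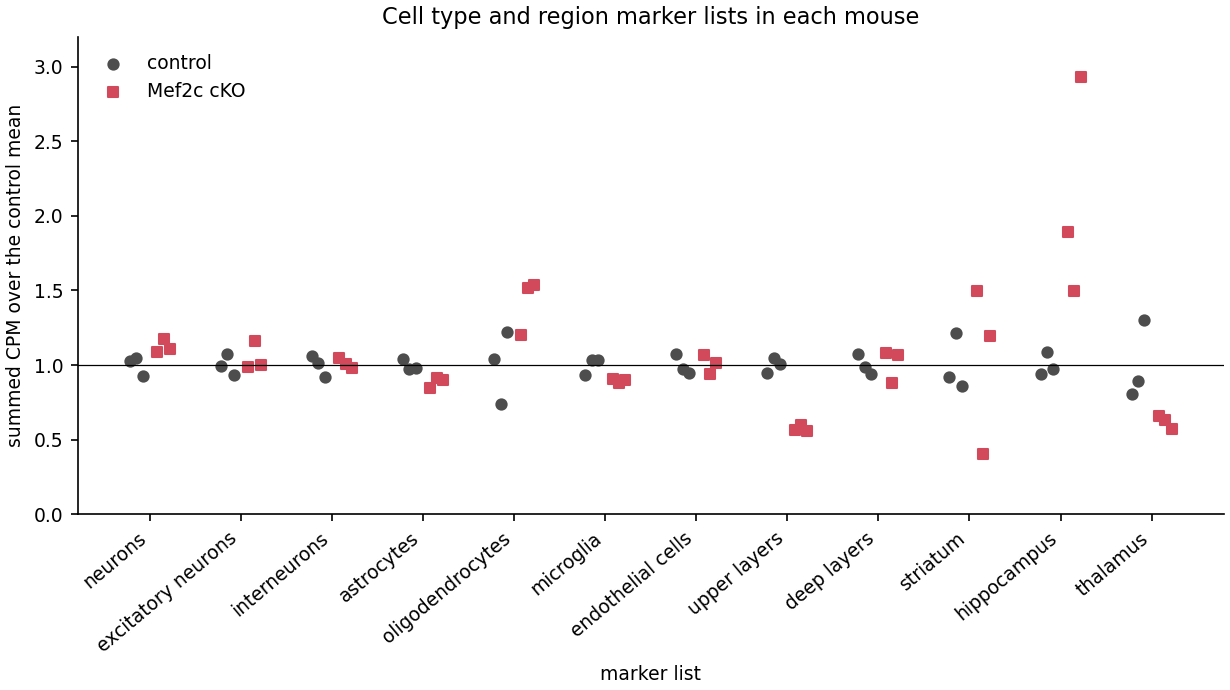
Summed CPM of each marker list in each mouse, divided by the mean of the 3 controls (line at 1). Circles are control mice and squares are Mef2c cKO mice. Upper-layer sums lie between 0.556 and 0.599 of the control mean in the cKO, and hippocampal sums, most of which are Wfs1, lie between 1.49 and 2.93.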

How the data were processed

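The authors sequenced polyA-selected, directional libraries of cortical RNA, 1 per mouse, aligned the reads to mm9 with TopHat and Bowtie and counted them on UCSC genes with HTSeq (versions not given in the sources used here). The deposited values are RPKM, 1 table per mouse. Groups, replicate numbers and ages came from the labels.

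The gene lengths behind each table proved to be a short set, 65 to 294 lengths, repeated in turn along the genes sorted by identifier. From this, whole reads were recovered for 98.91% to 99.76% of values above 0, and the rest were treated as missing. The read total of each mouse was also found from its values, and the recovered reads summed to 98.92% to 99.89% of it. The settings were chosen after seeing the data. On simulated tables with 65 and 294 lengths, 99.32% and 94.49% of values were recovered, of which 100% and 99.88% were right. In the second of these 284 of the 294 lengths were found. It imitated the table of *Mef2c* cKO replicate 3, where 98.93% of values were recovered, so the simulation did not match that table fully. The 46 to 15285 reads behind each member value set its counting error. The 92 rows without a gene name held 0.026% to 0.079% of the reads and were left out.

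CPM were fitted with limma 3.58.1 (R 4.3.3, lmFit and eBayes with trend) for genes over 0.5 CPM in every mouse of at least 1 genotype and with at least 2 values per genotype. On simulated data for this comparison (14479 genes), 87% of 200 changed genes and 8 unchanged ones were called. The simulation gave every gene the same spread between mice beyond counting error, so these rates need not hold for genes that vary more. *Epha8*, for example, had a coefficient of variation of 27.6% in the controls and 40.2% in the cKO mice. Same-numbered mice did not deviate together, so no block was fitted. Alternatives in pseudocount, filter, scaling, variance model, age, replicate block and single mice were run.

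The members and lists were chosen with earlier results of these data known. All Eph receptors and ephrins and the called genes of a signalling list are named by rule, while *Chn1*, *Ngef*, *Adam10*, *Chrd*, *Sgpp2*, *Arl6* and the single markers were named after their values were seen. Promoters are RefSeq sequences (GRCm38.p6), found for all 10 genes, and gene positions are gencode models on mm9. Python 3.11.15, numpy 2.4.6, pandas 2.3.3, scipy 1.17.1 and matplotlib 3.10.9 were used.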

Additional observations from a re-analysis of the deposited data

How the results depend on the processing

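On recovered reads, the number of Eph receptors called was 6 and stayed between 5 and 7 over 15 alternatives. With a mouse left out it was 5 to 6. The ligand and pathway genes tested were 3 other Eph receptors, 7 ephrins and 45 signalling genes. Of these, 8 were called, and the number stayed between 7 and 9, also with a mouse left out. The 8 were near the share of 13.5% called among all tested genes, so no shift of these genes is read from them. Over all genes, 1974 were called, 850 increased and 1124 decreased. With a mouse left out these became 1615 to 1838, 670 to 855 and 870 to 1070. The deposited RPKM gave 14 called genes, 9 increased and 5 decreased, of 7974 tested, with 0 Eph receptors and 0 ligand or pathway genes among them (0 and 2 at an unadjusted p under 0.05). With the RPKM the log2 fold changes of *Epha4*, *Epha5*, *Epha7*, *Ephb1* and *Ephb2* turned to -0.51, -1.67, -0.12, -0.85 and 2.29, with standard errors of 1.39 to 1.67, since the lengths differ between the tables. With a mouse left out *Ephb2* ranged from -0.14 to 0.03, turning to 0.00 without control replicate 3 and to 0.03 without *Mef2c* cKO replicate 3. *Epha8* lost its call without a variance trend (adjusted p = 0.059), and *Epha10* gained one with pseudocounts of 0.5 and 1, with a filter on the mean and with median-ratio scaling (adjusted p = 0.0472 to 0.0497). The causes were not tested. Deviations of same-numbered mice from their group means correlated at -0.176, -0.108 and -0.0873, so no pairing by replicate number was seen. With means of 3 mice such correlations cannot exclude pairing, and replicate 1 was 14 weeks old in both genotypes. With the replicate block 1656 genes and 6 Eph receptors were called. *Epha1* and *Efna4* were left out by the filter at 0.5 CPM, not by missing values.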
